A study of Mus musculus with 23 samples.

Results

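Expression of 10 genes of the S100, annexin and galectin families and of their cytoskeletal companions was followed across 4 sorted populations of mouse CD4+ T cells. The genes were S100a4, S100a6, S100a10, Anxa1, Anxa2, Anxa5, Lgals1, Lgals3, Capg and Vim, and they were taken by name, with earlier results of these data known. All 19 probe sets annotated to these genes alone were used, of 45101 probe sets on the array, and the 10 genes stood among 18194 genes with at least 1 probe set of their own. The study divided CD4+ T cells by surface staining for CD25, which is part of the receptor for interleukin-2, and for CD49f, the alpha 6 subunit of laminin-binding integrins. CD25-CD49f- cells (double-negative below) were measured on 7 arrays, CD25-CD49f+ cells on 7, CD25+CD49f- cells on 5 and CD25+CD49f+ cells (double-positive below) on 4. The labels give female mice, separate biological replicates and total RNA in each group, and name no strain, age, treatment or animal. As labelled, all groups share the CD4+ T cell source and differ in the gates.

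S100 proteins are small calcium-binding proteins that work as dimers and bind partner proteins when calcium rises. S100a10 is the member that pairs with annexin A2 without needing calcium. Annexins bind acidic membrane phospholipids in a calcium-dependent way and take part in membrane repair, vesicle traffic and the link between membrane and actin. Annexin A1 is also known as an anti-inflammatory mediator, and annexin A5 as the probe for phosphatidylserine on dying cells. Galectins bind beta-galactoside sugars on glycoproteins, and galectin-1 and galectin-3, the products of Lgals1 and Lgals3, are both known as regulators of T cell signalling and survival. Capg caps the barbed ends of actin filaments and Vim codes vimentin, the intermediate filament protein of lymphocytes. Many of these genes are known to be low in naive T cells and high in activated and memory T cells.

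The RefSeq promoter table for the mouse assembly GRCm38.p6 held 8 of the 10 genes, all but S100a10 and Lgals1. Each entry runs from 250 bases before the start site through the first 50 bases after it. The windows of 4 genes are printed below because they carry the main patterns of the data. S100a4 and S100a6 lie close together on chromosome 3, with S100a5 between them, and are each other's nearest gene in profile, Anxa2 had the smallest adjusted p of the 10 genes by CD49f in CD25- cells, and Lgals3 had the largest of the 10 differences between the CD25+ populations. Capitals mark matches, on either strand, to 6 motifs searched by their letters: AP-1 (TGANTCA), the TATA box (TATAAA), the GC box (GGGCGG), STAT (TTCNNNGAA), Runx (TGNGGT) and ETS (CCGGAAG). The S100a4 window is chr3:90603520-90603819 and the S100a6 window chr3:90612644-90612943, both on the plus strand. The Anxa2 window is chr9:69453433-69453732 and the Lgals3 window chr14:47373610-47373909, again on the plus strand.
S100a4: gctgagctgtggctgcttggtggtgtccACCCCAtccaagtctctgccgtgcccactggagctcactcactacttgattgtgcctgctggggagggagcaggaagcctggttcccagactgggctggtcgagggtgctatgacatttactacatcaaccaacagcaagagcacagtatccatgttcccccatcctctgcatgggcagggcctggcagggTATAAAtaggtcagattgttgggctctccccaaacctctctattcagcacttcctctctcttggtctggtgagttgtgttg
S100a6: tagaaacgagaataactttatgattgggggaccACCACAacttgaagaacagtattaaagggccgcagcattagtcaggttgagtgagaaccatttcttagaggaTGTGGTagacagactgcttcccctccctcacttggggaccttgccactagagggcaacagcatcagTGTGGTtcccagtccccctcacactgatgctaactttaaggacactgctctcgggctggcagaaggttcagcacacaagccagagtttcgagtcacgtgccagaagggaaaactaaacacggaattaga
Anxa2: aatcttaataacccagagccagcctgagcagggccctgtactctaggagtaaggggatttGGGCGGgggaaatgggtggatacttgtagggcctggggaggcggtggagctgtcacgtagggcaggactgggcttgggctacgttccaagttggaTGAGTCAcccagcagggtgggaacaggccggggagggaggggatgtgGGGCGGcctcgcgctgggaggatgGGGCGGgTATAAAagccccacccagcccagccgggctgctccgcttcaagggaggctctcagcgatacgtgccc
Lgals3: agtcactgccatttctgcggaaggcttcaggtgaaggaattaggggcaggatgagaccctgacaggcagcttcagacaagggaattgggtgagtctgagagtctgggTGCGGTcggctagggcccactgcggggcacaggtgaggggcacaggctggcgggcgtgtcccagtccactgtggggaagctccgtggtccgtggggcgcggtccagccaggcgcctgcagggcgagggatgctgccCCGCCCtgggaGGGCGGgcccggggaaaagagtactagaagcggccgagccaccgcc

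The 4 windows differ in the motifs they hold. A TATA box match began 31 bases before the start site of S100a4, whose window also held a Runx match at -222. The S100a6 window held no TATA box match and 3 Runx matches, beginning at -217, -145 and -79. The Anxa2 window held an AP-1 match at -95, 3 GC box matches at -190, -48 and -24, and a TATA box match at -17. In the Lgals3 window a GC box match lay on either side of the start site, at -7 and at 5, with a Runx match at -143. Over the 8 windows available, TATAAA was found in 4 (S100a4, Anxa1, Anxa2 and Vim), against 13.6% of the 32851 promoter windows of the table. TGANTCA was found in 1 against 7.81%, GGGCGG in 2 against 35.7%, and TGNGGT in 6 against 45.8%. Neither TTCNNNGAA, present in 8.3% of all windows, nor CCGGAAG, present in 8.86%, was found in any of the 8. These are matches of letters within 300 bases, and binding was not measured.

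Levels are given on the log2 scale on which the values were deposited. Each gene is represented by the probe set of highest mean level (23 arrays), differences are given with their standard errors, and a difference was called where limma's adjusted p over all 18194 genes was under 0.05. The p-values cover only how much these arrays vary, and the number of arrays limits the precision. Levels of different genes are not compared, since probe sets differ in brightness. On arrays that lack a sex-linked transcript, Eif2s3y read up to 3.49 and Xist up to 6.50, so the reading of an absent transcript depends on the probe set. Levels under 6.50 are called dim below, and they may or may not be above background. The gates were reflected in Il2ra, the gene of CD25, which had means of 5.42 and 6.84 in the CD25- groups and 9.69 and 9.60 in the CD25+ groups without and with CD49f. Foxp3, the defining transcription factor of regulatory T cells, had means of 4.74 in CD25-CD49f-, 8.25 in CD25-CD49f+, 9.79 in CD25+CD49f- and 9.85 in CD25+CD49f+ cells. The transcript of Itga6, the gene of CD49f, did not follow the CD49f gate, with means of 9.79, 9.36, 9.64 and 9.81 in the same order. CD4 T cell markers were present throughout, with a median summed level between 14.43 and 14.51 in the 4 groups. The lowest single sum was 13.94, in CD25+CD49f- cells. Of the 10 markers measured, 4 were lower and none higher in CD25+CD49f- than in double-negative cells (4.68% of all genes lower). In CD25+CD49f- and in CD25+CD49f+ cells 2 were lower and none higher than in CD25-CD49f+ cells (3.63% and 2.91% of all genes lower). With CD49f, 1 was higher and none lower in CD25- and in CD25+ cells alike (8.01% and 0.352% of all genes higher). Y-linked transcripts were found on 11 arrays although all labels say female, 10 of them without Xist and 1 with it, and in each group some arrays had them and others did not. On 4 arrays, CD25-CD49f- replicates 1 and 7, CD25-CD49f+ replicate 1 and CD25+CD49f- replicate 5, the correlation with the group's median profile lay between 0.974 and 0.987, and it was at least 0.995 on the others. CD25+CD49f- replicate 5 also had a difference of 4.83 between the 3' and 5' Actb control probe sets, against 1.22 to 2.70 elsewhere.

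**Figure D1:**
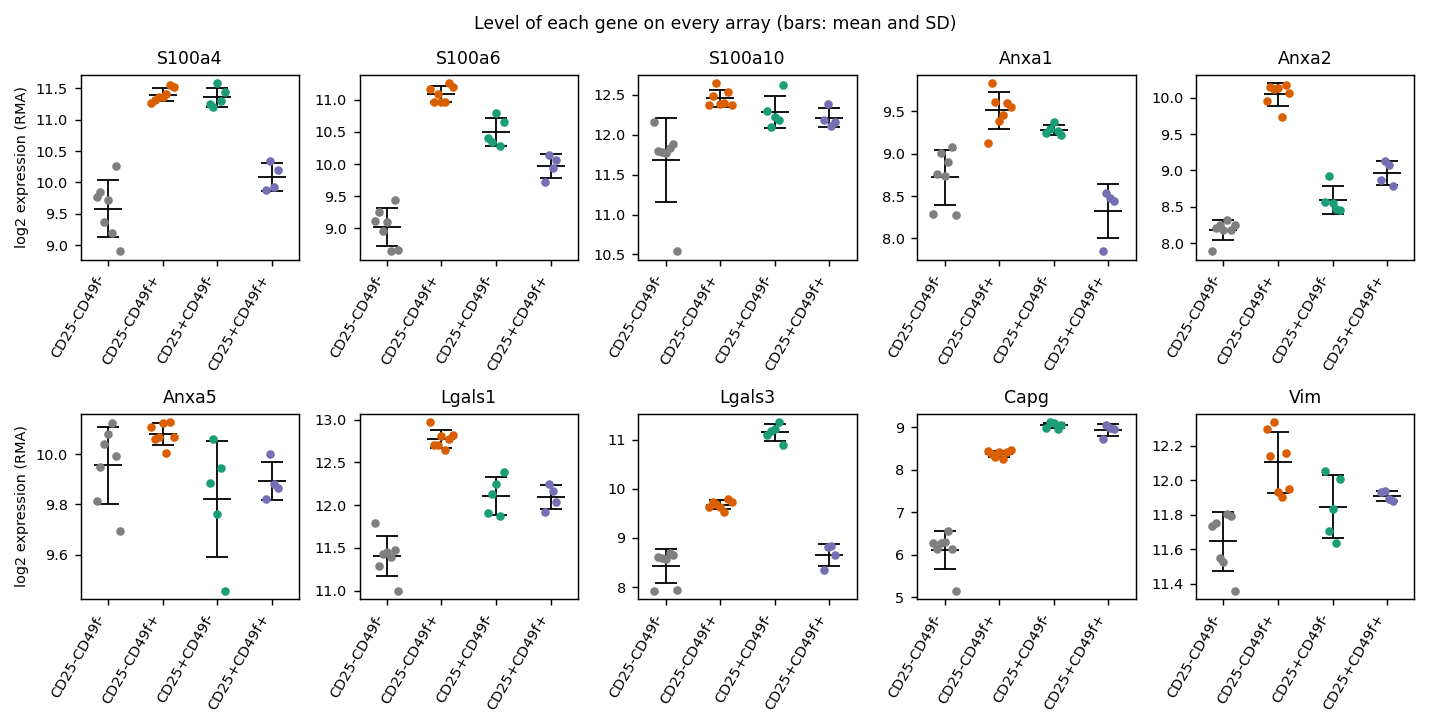
Log2 expression of the 10 genes (y axes, one panel per gene, each with its own range) on each of the 23 arrays, grouped by gate on the x axis, with the group mean and SD as bars. S100a4 lay between 11.21 and 11.58 in CD25-CD49f+ and CD25+CD49f- cells and at 10.34 or less in the other groups, whereas Lgals3 was at 10.90 or more in CD25+CD49f- cells alone.

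In CD25- cells, the CD49f+ population had higher levels of 9 of the 10 genes, all but Anxa5, and none was lower. The median difference over the 10 genes was 1.31, against -0.02 over all 18194 genes, of which 8.01% were called higher and 5.42% lower. In CD25+ cells the picture was another one. There 3 genes, S100a4, Anxa1 and Lgals3, were lower in the CD49f+ population and none was higher, with a median difference of -0.09 against 0.01 over all genes, of which 1.47% were called lower and 0.352% higher. Because each array is a bulk sample, fewer cells that express a gene and less RNA per cell cannot be told apart.

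The counts by CD25 also depended on the other gate. Among CD49f- cells, 8 of the 10 were higher in the CD25+ population and none was lower (median 0.65 against -0.01 over all genes, of which 9.34% were higher and 4.68% lower). Among CD49f+ cells, 6 were lower and 1, Capg, was higher in the CD25+ population (median -0.85 against 0.02 over all genes, of which 2.91% were lower and 2.81% higher). Between the populations at opposite corners, 5 of the 10 were higher and none was lower in double-positive than in double-negative cells (7.63% of all genes were higher and 5.53% lower). Of the single-positive populations, CD25+CD49f- cells had 2 of the genes higher and 3 lower than CD25-CD49f+ cells (5.23% of all genes were higher and 3.63% lower). The pairwise comparisons share arrays, so their values are set side by side and are not independent of each other.

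**Figure D2:**
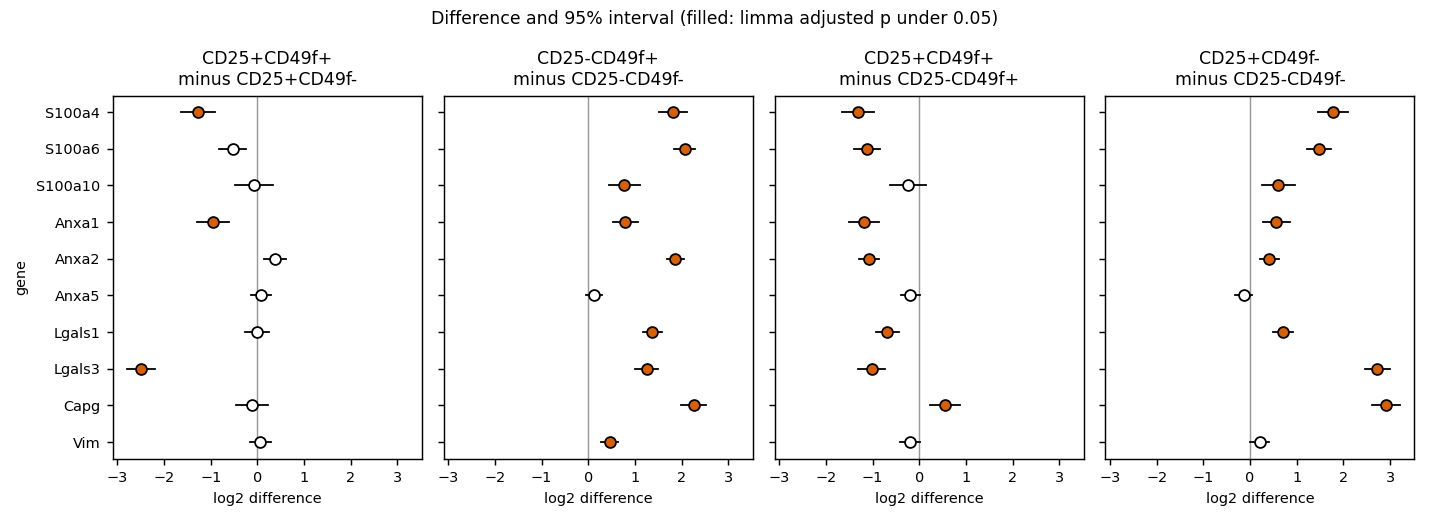
Log2 difference between populations (x axis) for each of the 10 genes (y axis) in 4 comparisons, with 95% confidence intervals; filled points have a limma adjusted p under 0.05. In CD25- cells all filled points are above 0, up to 2.26 for Capg, and in CD25+ cells the 3 filled points are below 0, down to -2.49 for Lgals3.

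The S100 genes were low in CD25-CD49f- cells and high in CD25-CD49f+ cells. S100a4, a calcium-binding protein that interacts with non-muscle myosin, ranged from 8.90 to 10.26 with a median of 9.73 over the 7 CD25-CD49f- arrays, and from 11.26 to 11.54 with a median of 11.37 over the 7 CD25-CD49f+ arrays. In CD25+CD49f- cells its levels were 11.25, 11.21, 11.58, 11.30 and 11.44, and in CD25+CD49f+ cells they were 9.87, 10.34, 9.93 and 10.19. The gene was thus high in the populations positive for exactly 1 of the markers, whose arrays overlapped, and low in the double-negative and double-positive populations, whose arrays also overlapped. The difference between CD49f+ and CD49f- cells was 1.82 ± 0.14 in CD25- cells (3.53-fold, adjusted p = 5.12e-10) and -1.27 ± 0.18 in CD25+ cells (2.41-fold lower, adjusted p = 4.85e-05). The single-positive populations differed by -0.04 (CD25+CD49f- minus CD25-CD49f+), with a 95% interval from -0.36 to 0.28 (adjusted p = 0.972). Within CD25+ cells the difference was -1.12 (adjusted p = 0.0125) over arrays without Y-linked transcripts and -1.38 (adjusted p = 0.0889) over arrays with them. The smaller difference of 0.51 ± 0.17 between double-positive and double-negative cells (adjusted p = 0.0445) was not called in 14 of the 23 fits with 1 array left out, among which its adjusted p reached 0.191. Without the 4 arrays that stand apart it was 0.41 (adjusted p = 0.0532). It stayed called without CD25-CD49f- replicate 1, 2, 4 or 6, CD25-CD49f+ replicate 1, CD25+CD49f- replicate 2, 3 or 5, or CD25+CD49f+ replicate 1.

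S100a6, also called calcyclin and known from proliferating cells, separated all 4 populations. Its levels were 8.65 to 9.45 (median 9.10) in CD25-CD49f- cells and 10.96 to 11.26 (median 11.09) in CD25-CD49f+ cells. They were 10.40, 10.34, 10.79, 10.28 and 10.66 in CD25+CD49f- cells and 9.72, 10.14, 9.95 and 10.06 in CD25+CD49f+ cells. No array of one population fell within the range of another. CD49f+ cells were higher by 2.06 ± 0.11 in CD25- cells (4.18-fold, adjusted p = 1.29e-12), whereas in CD25+ cells the difference was -0.53 ± 0.14 and missed the threshold (adjusted p = 0.054). Both CD25+ populations were above the double-negative cells, by 1.47 ± 0.12 without CD49f (adjusted p = 1.41e-09) and by 0.94 ± 0.13 with it (adjusted p = 7.57e-06).

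S100a10, the partner of annexin A2, varied less. Its levels in CD25-CD49f- cells were 11.78 to 12.17 on 6 arrays and 10.54 on replicate 7, against 12.37 to 12.65 in CD25-CD49f+ cells, 12.10 to 12.63 in CD25+CD49f- cells and 12.12 to 12.39 in CD25+CD49f+ cells. All CD25-CD49f+ arrays lay above all double-negative ones, while the CD25+ groups overlapped each other. The gene was higher by 0.77 ± 0.16 in CD49f+ than in CD49f- cells among CD25- cells (adjusted p = 0.000839) and by 0.60 ± 0.17 in CD25+CD49f- than in double-negative cells (adjusted p = 0.0167). The second of these was no longer called without CD25+CD49f- replicate 5, the array with the large Actb difference (adjusted p = 0.0592). Without the 4 arrays that stand apart it was 0.38 (adjusted p = 0.000394). Over arrays without and with Y-linked transcripts it was 0.31 (adjusted p = 0.306) and 0.93 (adjusted p = 0.0892), and the difference by CD49f in CD25- cells was 0.58 (adjusted p = 0.0053) and 1.02 (adjusted p = 0.0717).

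Among the annexins, Anxa2 marked the CD25-CD49f+ population. Its levels were 7.89 to 8.31 (median 8.20) in CD25-CD49f- cells and 9.74 to 10.17 (median 10.12) in CD25-CD49f+ cells. In CD25+CD49f- cells they were 8.57, 8.93, 8.55, 8.46 and 8.45, and in CD25+CD49f+ cells 8.87, 9.13, 9.07 and 8.78. The CD25-CD49f+ arrays all stood above every other array, and the CD25+ populations overlapped through a single CD25+CD49f- array, replicate 2. The difference by CD49f was 1.87 ± 0.09 in CD25- cells (3.65-fold, adjusted p = 8.76e-14) and 0.37 ± 0.11 in CD25+ cells, which missed the threshold (adjusted p = 0.11). CD25+CD49f+ cells were lower than CD25-CD49f+ cells by 1.08 (SE 0.10, adjusted p = 5.86e-08), and CD25+CD49f- cells were lower than CD25-CD49f+ cells by 1.46 (SE 0.10, adjusted p = 4.04e-11). Without CD25+CD49f- replicate 2 the difference within CD25+ cells passed the threshold (adjusted p = 0.0202).

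Anxa1 had its lowest levels in the double-positive cells. It measured 7.85, 8.53, 8.48 and 8.44 on the CD25+CD49f+ arrays and 9.25, 9.29, 9.38, 9.27 and 9.22 on the CD25+CD49f- arrays. In CD25- cells it ranged from 8.27 to 9.08 (median 8.76) without CD49f and from 9.13 to 9.84 (median 9.56) with it. Double-positive arrays overlapped those of the double-negative cells and no others. Within CD25+ cells the CD49f+ population was lower by 0.95 (SE 0.16, 1.94-fold, adjusted p = 0.000639), and within CD25- cells it was higher by 0.79 ± 0.13 (adjusted p = 6.26e-05). The decrease within CD25+ cells was -1.08 over arrays without Y-linked transcripts and -0.83 over those with them, with adjusted p = 0.15 and 0.127 in these smaller sets. Double-positive and double-negative cells differed by -0.39 ± 0.15 (adjusted p = 0.098), a value that reached -0.57 with an adjusted p of 0.000567 without the 4 arrays that stand apart.

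Anxa5 gave no call in any of the 6 pairwise comparisons. Its means were 9.96 ± 0.15 (SD, n = 7) in CD25-CD49f-, 10.08 ± 0.04 (SD, n = 7) in CD25-CD49f+, 9.82 ± 0.23 (SD, n = 5) in CD25+CD49f- and 9.89 ± 0.08 (SD, n = 4) in CD25+CD49f+ cells. The widest difference between group means was 0.26, between the single-positive populations, with an adjusted p of 0.0716 and a 95% interval for CD25+CD49f- minus CD25-CD49f+ from -0.44 to -0.08. By CD49f, the interval was -0.04 to 0.29 in CD25- cells and -0.14 to 0.28 in CD25+ cells.

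The galectins followed separate patterns. Lgals3 was by far highest in CD25+CD49f- cells, where its levels were 11.10, 11.18, 11.22, 11.36 and 10.90, against 8.34, 8.81, 8.83 and 8.65 in CD25+CD49f+ cells. It ranged from 7.93 to 8.70 (median 8.60) in CD25-CD49f- cells and from 9.54 to 9.80 (median 9.69) in CD25-CD49f+ cells. The double-positive arrays thus overlapped the range of the double-negative ones, with the CD25-CD49f+ arrays between them and the CD25+CD49f- arrays and apart from both. The difference by CD49f within CD25+ cells was -2.49 ± 0.15 (5.63-fold lower, adjusted p = 7.13e-12), and it was -2.56 over arrays without Y-linked transcripts (adjusted p = 1.2e-05) and -2.42 over those with them (adjusted p = 0.000166). In CD25- cells the CD49f+ population was higher by 1.25 ± 0.12 (adjusted p = 1.33e-08). Double-positive and double-negative cells differed by 0.23 ± 0.14, with an interval from -0.06 to 0.52 (adjusted p = 0.385).

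Lgals1 had its top level in CD25-CD49f+ cells, and no difference between the CD25+ populations was called. Its levels were 11.001 to 11.79 (median 11.42) in CD25-CD49f- and 12.65 to 12.97 (median 12.77) in CD25-CD49f+ cells. In CD25+CD49f- cells they were 11.90, 12.13, 12.25, 11.88 and 12.38, and in CD25+CD49f+ cells 11.92, 12.24, 12.17 and 12.04. The CD25+ populations shared one range that lay between those of the CD25- populations without touching either. CD49f+ cells were higher by 1.37 ± 0.10 in CD25- cells (2.59-fold, adjusted p = 1.06e-10), and the difference in CD25+ cells was -0.01 ± 0.12 with an interval from -0.27 to 0.24 (adjusted p = 0.999). Both CD25+ populations were above the double-negative cells, by 0.70 ± 0.11 without CD49f (adjusted p = 2.33e-05) and 0.69 ± 0.12 with it (adjusted p = 7.94e-05).

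Capg, the actin-capping protein, was set apart in the double-negative cells. There it ranged from 5.16 to 6.57 (median 6.27), against 8.26 to 8.46 (median 8.41) in CD25-CD49f+ cells. It measured 8.99, 9.12, 9.09, 8.97 and 9.06 in CD25+CD49f- and 8.72, 9.06, 8.97 and 8.97 in CD25+CD49f+ cells. The double-negative arrays were all far below the rest, and the CD25+ populations overlapped. Relative to double-negative cells it was higher by 2.26 ± 0.13 in CD25-CD49f+ cells (adjusted p = 3.92e-12), by 2.92 ± 0.14 in CD25+CD49f- cells (7.57-fold, adjusted p = 4.87e-14) and by 2.81 ± 0.16 in CD25+CD49f+ cells (7.01-fold, adjusted p = 5.59e-13). The double-negative level was dim on all but 1 array by the Xist reading and above the Eif2s3y reading on every array, and if it was background these folds are too small. By CD49f within CD25+ cells the difference was -0.11 ± 0.17 with an interval from -0.45 to 0.23 (adjusted p = 0.999). The increase of 0.55 ± 0.16 from CD25-CD49f+ to CD25+CD49f+ cells (adjusted p = 0.0304) was lost when CD25-CD49f+ replicate 2, 3 or 5 or CD25+CD49f+ replicate 2, 3 or 4 was left out, where its adjusted p reached 0.115, and with probe sets averaged, where it was 0.48 (adjusted p = 0.104). It was 0.52 (adjusted p = 0.0566) and 0.59 (adjusted p = 0.583) over arrays without and with Y-linked transcripts.

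Vim changed in a single pairwise comparison. Its levels were 11.36 to 11.80 in CD25-CD49f-, 11.90 to 12.34 in CD25-CD49f+, 11.64 to 12.05 in CD25+CD49f- and 11.88 to 11.94 in CD25+CD49f+ cells. The CD25- populations did not overlap, and CD49f+ cells were higher by 0.46 ± 0.09 (1.37-fold, adjusted p = 0.000487), and by 0.90 (adjusted p = 0.000823) on the Vim probe set with the widest interquartile range. Over arrays without Y-linked transcripts this was 0.53 (adjusted p = 0.0139) and over those with them 0.37 (adjusted p = 0.244).

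Whether the CD49f difference was the same in CD25+ and CD25- cells was tested directly as an interaction. It was below 0 and called for 8 of the 10 genes, all but Anxa5 and Vim, and above 0 and called for none. Over all genes 4.33% had a called negative and 0.984% a called positive interaction. The values were -3.74 ± 0.19 for Lgals3 (adjusted p = 4.81e-13), -3.09 ± 0.23 for S100a4 (adjusted p = 6.27e-10), -2.59 ± 0.18 for S100a6 (adjusted p = 2.26e-10) and -2.37 ± 0.21 for Capg (adjusted p = 2.04e-08). They were smaller for Anxa1 at -1.74 ± 0.21, Anxa2 at -1.49 ± 0.14 and Lgals1 at -1.39 ± 0.16. The 8 genes reached a negative interaction in different ways. In Lgals3, S100a4 and Anxa1 the CD49f difference was called in both settings with opposite signs, whereas in Capg, Lgals1, Anxa2, S100a6 and S100a10 it was called in CD25- cells and not in CD25+ cells. The Capg value is limited by the dim double-negative level. The S100a10 value, -0.84 ± 0.25 (adjusted p = 0.0495), stayed called in 3 of the 23 fits with 1 array left out, those without CD25-CD49f- replicate 1, 6 or 7, and its adjusted p reached 0.105 in the others. Over arrays without Y-linked transcripts it was -0.49 (adjusted p = 0.39) and over those with them -1.23 (adjusted p = 0.321). Anxa5, at -0.05 with an interval from -0.32 to 0.21, and Vim, at -0.39 with an interval from -0.69 to -0.10 (adjusted p = 0.137), gave no call. Foxp3 itself had a CD49f difference of 3.51 in CD25- cells and 0.06 in CD25+ cells, and an interaction of -3.46 (adjusted p = 2.83e-12). Its double-negative mean of 4.74 was dim, which limits these values as it does those of Capg, and the part of Foxp3 in the results was not tested.

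**Figure D3:**
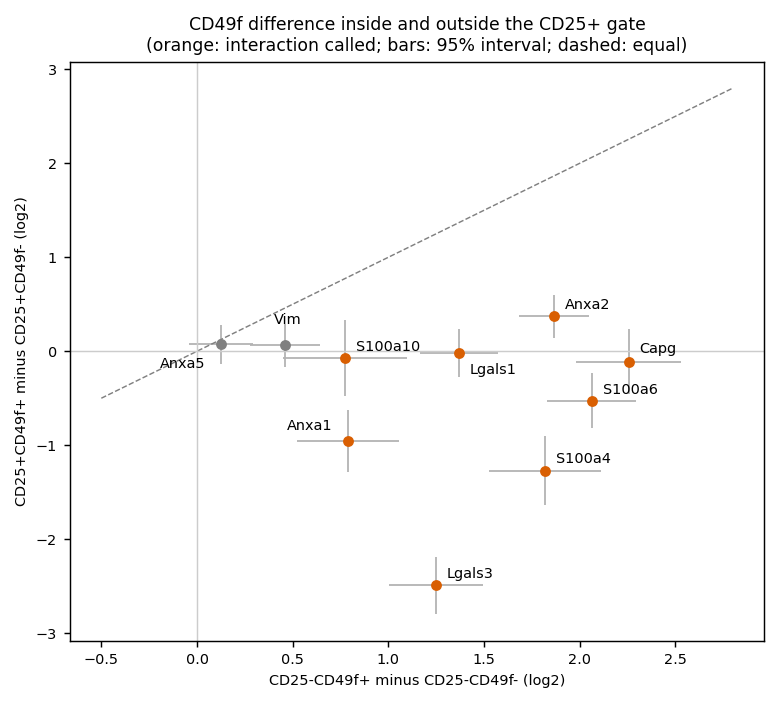
CD49f+ minus CD49f- log2 difference in CD25- cells (x axis) against the same difference in CD25+ cells (y axis) for the 10 genes, with 95% confidence intervals; orange points have a called interaction and the dashed line marks equal differences. All 8 orange points are below the line, Lgals3 farthest at 1.25 and -2.49, while Anxa5 lies near the origin.

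Where they were bright, further probe sets of a gene had the same highest and lowest populations as the one used. Those of Lgals1 and S100a10 reversed the order of the CD25+ populations, which gave no called difference on any probe set of these genes. Fitted over all 45101 probe sets, 15 of the 19 were called higher in CD49f+ cells among CD25- cells (5.45% of all probe sets), 3 were called lower among CD25+ cells (0.911%) and 9 had a called negative interaction (2.52%). The second Lgals1 probe set had means of 9.76, 11.53, 10.43 and 10.62 in the CD25-CD49f-, CD25-CD49f+, CD25+CD49f- and CD25+CD49f+ groups, with an interaction of -1.57 (adjusted p = 2.39e-06). For S100a10, the second brightest probe set had means of 10.93, 11.91, 11.33 and 11.48 and a tighter double-negative group (SD 0.09 against 0.52 on the one used above). On it CD25-CD49f+ cells were above CD25+CD49f+ cells by a called difference, -0.44 ± 0.09 for the latter minus the former (adjusted p = 0.00538), where the brighter probe set gave -0.24 (adjusted p = 0.723). Also called on it was CD25+CD49f- minus CD25-CD49f+, at -0.58 (adjusted p = 5.57e-05), where the brighter one gave -0.17 (adjusted p = 0.77). Double-positive minus double-negative cells gave 0.55 on it (adjusted p = 0.00017) and 0.53 on the brighter one (adjusted p = 0.0587). The interaction of -0.84 on the second brightest probe set had an adjusted p of 0.000134. The second Capg probe set, in part dim, had means of 5.67, 6.37, 7.11 and 6.79 in the 4 groups, ordered as before. Relative to double-negative cells it was higher by 0.70 in CD25-CD49f+, 1.44 in CD25+CD49f- and 1.11 in CD25+CD49f+ cells, all called. These differences were smaller than on the brighter Capg probe set, and its interaction of -1.03 was not called (adjusted p = 0.135). One further Vim probe set read 10.04 on CD25+CD49f- replicate 5 and had a called difference of -0.83 for CD25+CD49f- cells relative to CD25-CD49f+ (adjusted p = 0.00984), which the other Vim probe sets did not give. The second Anxa1 probe set, with group means of 3.40 to 3.65, and the dimmest of Anxa2, with 2.72 to 3.03, were dim and had no called difference. The third Anxa2 probe set was dim as well, at 4.73 in double-negative and 5.49 in CD25-CD49f+ cells, and that difference was called (adjusted p = 4.56e-05). Averaging the probe sets of a gene, dim ones included, lowered the Anxa2 difference by CD49f in CD25- cells from 1.87 to 0.81 and that of Anxa1 from 0.79 to 0.28, both still called.

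**Figure D4:**
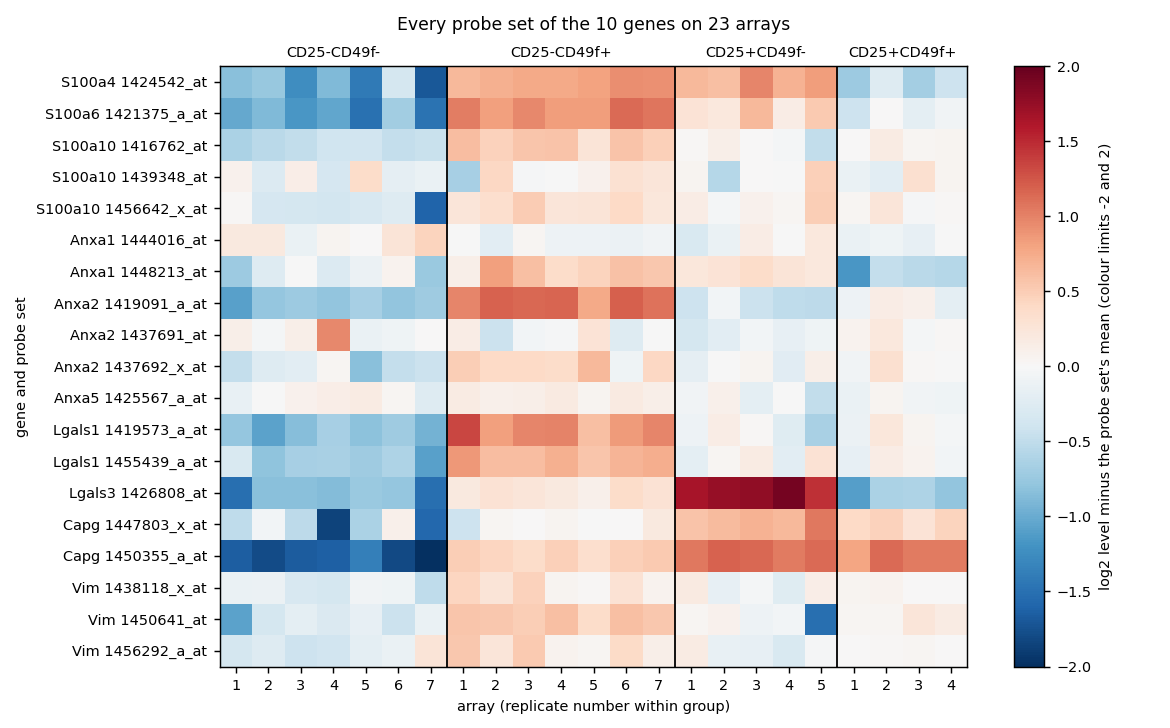
Log2 level of each of the 19 probe sets (rows) on each of the 23 arrays (columns, by population and replicate number), as the difference from the probe set's own mean in colour, limited at -2 and 2. The brightest rows of S100a4, S100a6, Anxa2 and Lgals1 are blue in CD25-CD49f- and red in CD25-CD49f+ cells, the Anxa5 row is pale throughout, and the Lgals3 row is strongest in the CD25+CD49f- columns.

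S100a4, S100a6 and S100a10 belong to a cluster of S100 genes on chromosome 3. Of its 13 genes, 11 were measured by a probe set of their own. S100a5, which lies between S100a4 and S100a6, stayed between 3.91 and 3.97 in the 4 group means and was dim. S100a13, a copper- and calcium-binding member farther along the cluster, had means of 8.82, 9.50, 9.16 and 8.93 in the CD25-CD49f-, CD25-CD49f+, CD25+CD49f- and CD25+CD49f+ groups. It was higher by 0.68 with CD49f in CD25- cells (adjusted p = 7.7e-07) and had an interaction of -0.91 (adjusted p = 3.93e-05). S100a8 and S100a9, the subunits of calprotectin from neutrophils and monocytes, were not called by CD49f in either setting, and S100a9 was lower by 0.89 in double-positive cells than in CD25-CD49f+ cells (adjusted p = 0.0433).

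**Figure D5:**
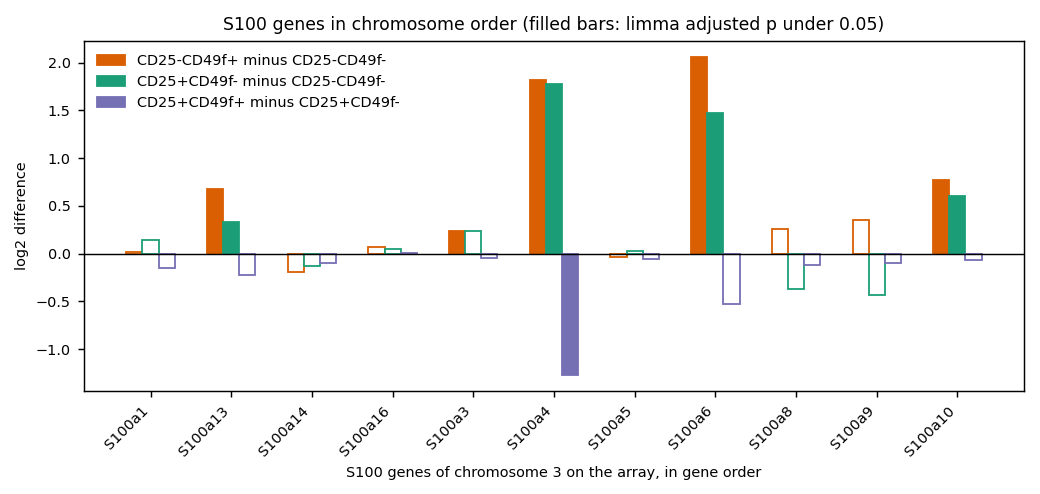
Log2 differences (y axis) of the 11 measured S100 genes in their order on chromosome 3 (x axis) for 3 comparisons; filled bars have a limma adjusted p under 0.05. The tall bars belong to S100a4 and S100a6, with S100a5 between them at -0.04, 0.02 and -0.05.

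The genes with the most similar profiles were found by the root mean square difference of mean-centred log2 values over the 23 arrays, which include the arrays that stand apart. S100a4 and S100a6 were each other's nearest among all other genes, at 0.28. Next for S100a4 were Ttc39c at 0.39 and Icos, a costimulatory receptor, at 0.40, and for S100a6 5033430I15Rik at 0.31 and Cdkn2c, an inhibitor of cyclin-dependent kinases, at 0.35. Anxa2 was closest to Mad2l1 at 0.15 and Racgap1 at 0.16, genes of the spindle checkpoint and of cytokinesis. Mad2l1 had means of 7.55, 9.26, 7.93 and 8.43 in CD25-CD49f-, CD25-CD49f+, CD25+CD49f- and CD25+CD49f+ cells. Lgals1 was closest to Asf1b, a histone chaperone, at 0.18 and to Crmp1 at 0.19. Capg was closest to Il2rb, another interleukin-2 receptor chain, at 0.28 and to Ikzf2, which codes the transcription factor Helios, at 0.36. Lgals3 was closest to Serpinb1a, a serine protease inhibitor, at 0.40, whose means were 4.73, 5.34, 7.44 and 4.88, and to the leukotriene receptor gene Cysltr1 at 0.51. The chemokine receptor gene Ccr2 and Myadm came nearest to Anxa1, at 0.24 and 0.25, and Prr13 and Dbi to S100a10, at 0.16 and 0.18. Vim and Anxa5, which varied little, had Rdm1 and Ccng1 (both 0.15) and Sash3 and Pdcd2 (0.08 and 0.09).

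Other genes of these families were then counted, with S100pbp and Lgals3bp, which code binding proteins, included in the S100 and galectin lists. The lists here and below were chosen with earlier results of these data known. Of the 11 measured genes of the S100 list, 2 were higher and none was lower with CD49f in CD25- cells. There 8.01% of all genes were higher and 5.42% lower. None of the 11 was called by CD49f in CD25+ cells. Of 8 other annexins, 1 was higher with CD49f in CD25- cells, Anxa6, by 0.35 (adjusted p = 0.0246), and none was called in CD25+ cells. Anxa6 was lower by 0.48 in double-positive cells than in CD25-CD49f+ cells (adjusted p = 0.0171), while Anxa4 was higher by 0.67 in CD25+CD49f- than in double-negative cells (adjusted p = 0.00167). Of the 8 measured genes of the galectin list, Lgalsl was higher by 0.65 and Lgals4 was lower by 0.37 with CD49f in CD25- cells (adjusted p = 0.00868 and 0.0448). None of the 8 was called by CD49f in CD25+ cells. The medians of the 3 lists in CD25- cells were 0.01, 0.02 and 0.02, against -0.02 over all genes.

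Actin-capping and filament genes gave single calls. Of 12 actin-capping and severing genes, none was higher and 1 was lower with CD49f in CD25- cells, and 2 were lower in CD25+ cells, against 5.42% and 1.47% of all genes called lower. Gsn, which codes the severing protein gelsolin, had means of 9.40, 8.62, 8.72 and 7.84 in the 4 groups, ordered as before, and fell with CD49f in both settings, by 0.77 in CD25- cells (adjusted p = 0.00015) and by 0.87 in CD25+ cells (adjusted p = 0.00292). Scin, its relative scinderin, was lower by 0.56 with CD49f in CD25+ cells (adjusted p = 0.01) at dim levels of 4.55 to 5.81. Of 10 genes of intermediate filaments and of proteins that bind them, 2 were higher with CD49f in CD25- cells (8.01% of all genes) and 1 in CD25+ cells (0.352%). None was lower in either. Lmnb1, the gene of the nuclear lamin B1, was higher with CD49f by 0.90 in CD25- cells (adjusted p = 0.00131) and by 1.02 in CD25+ cells (adjusted p = 0.0187). Dsp, of a filament-binding protein, was higher by 0.86 in CD25- cells (adjusted p = 0.00738) at means of at most 5.74.

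Among 17 measured partners and receptors of the 10 proteins, 4 were higher and 2 lower with CD49f in CD25- cells (8.01% and 5.42% of all genes), and 1 was lower in CD25+ cells (1.47%). Ahnak, the giant scaffold protein bound by the annexin A2 and S100a10 complex, had means of 10.32 in CD25-CD49f+, 9.95 in CD25+CD49f- and 10.05 in CD25+CD49f+ cells. It was higher by 1.32 with CD49f in CD25- cells (adjusted p = 1.02e-08) and had an interaction of -1.22 (adjusted p = 0.000161). Cd44, a hyaluronan receptor that rises on memory T cells, was higher by 1.24 in CD25- cells (adjusted p = 5.2e-07). Cd7, a T cell glycoprotein bound by galectin-1, was lower by 1.31 with CD49f in CD25+ cells (adjusted p = 1.12e-10), with means of 9.16 and 7.85. Crip1 had an interaction of -0.77 (adjusted p = 0.000562), and Plaur, the urokinase receptor, was lower by 0.59 with CD49f in CD25- cells (adjusted p = 7.47e-06). Mgat5, whose enzyme builds sugar branches that galectins bind, was higher by 1.38 in CD25+CD49f- than in double-negative cells (adjusted p = 2.52e-08).

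Several of the 10 genes are also strongly expressed by other blood cells, so markers of those cells were summed on each array. The summed level of the 17 measured markers of myeloid and dendritic cells had its highest median in CD25-CD49f- cells, though not every marker was highest there. It was 11.39 to 12.80 (median 12.40) in these cells, against 11.42 to 11.96 in CD25-CD49f+, 11.29 to 11.74 in CD25+CD49f- and 10.997 to 11.73 in CD25+CD49f+ cells. In CD25- cells 9 of the 17 were lower with CD49f and none was higher, against 5.42% of all genes lower. In CD25+ cells 2 of the 17 were lower with CD49f and none was higher (1.47% of all genes lower). A positive interaction was called for 4 and a negative one for 1 (0.984% and 4.33% of all genes). Double-positive cells had 11 lower and none higher than double-negative cells (5.53% of all genes lower). In CD25+CD49f- cells 1 was higher and 9 lower than in double-negative cells (9.34% and 4.68% of all genes). Relative to CD25-CD49f+ cells 2 were higher and 1 lower there (5.23% and 3.63% of all genes). The neutrophil sum was 10.48 to 11.61 in CD25-CD49f-, 11.05 to 11.96 in CD25-CD49f+, 10.38 to 11.31 in CD25+CD49f- and 10.17 to 11.16 in CD25+CD49f+ cells. None of the 9 measured neutrophil markers was called by CD49f in either setting, and 2 of them were lower in double-positive cells than in CD25-CD49f+ cells (2.91% of all genes). Between the single-positive populations 5 of the 9 were lower and none higher in CD25+CD49f- cells (3.63% of all genes lower), with a median of -0.63. In the same comparison S100a6, Anxa2 and Lgals1 were lower, Lgals3 and Capg were higher, and the other 5 of the 10 genes gave no call. Relative to double-negative cells 2 of the 9 were lower in CD25+CD49f- cells (4.68% of all genes). The NK cell sum, over 7 measured markers, was 9.42 to 10.10 in CD25-CD49f-, 10.002 to 10.33 in CD25-CD49f+, 10.008 to 10.36 in CD25+CD49f- and 9.61 to 9.99 in CD25+CD49f+ cells. Like S100a4 it was higher in both single-positive populations than in double-positive cells, without overlap, but it overlapped the double-negative range. With CD49f, 2 of the 7 NK markers were higher and 1 lower in CD25- cells (8.01% and 5.42% of all genes), and 1 was lower in CD25+ cells (1.47%). In CD25+CD49f- against double-negative cells 3 were higher and 1 lower (9.34% and 4.68% of all genes). A negative interaction was called for 2 of them and a positive one for 1 (4.33% and 0.984% of all genes). Of the NK markers Ncr1, Klre1 and Klra8 were dim on every array. Markers of gamma delta and NKT cells, of which 4 were measured (Zbtb16, Sox13, Blk and 5830411N06Rik), had summed levels of 7.83 to 8.15 in CD25-CD49f-, 8.31 to 8.55 in CD25-CD49f+, 8.77 to 8.90 in CD25+CD49f- and 7.81 to 8.10 in CD25+CD49f+ cells. Like Lgals3 these sums were highest in CD25+CD49f- cells. With CD49f, 3 of the 4 markers were lower in CD25+ cells (1.47% of all genes) and 2 of the 4 higher in CD25- cells (8.01% of all genes). Single markers stayed between 5.42 and 7.79, in part dim, and Zbtb16, the defining factor of NKT cells, had means of 5.998, 6.58, 6.49 and 5.77 in the 4 groups. The part of these cells in the results was not tested.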

How the data were processed

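RNA of sorted CD4+ T cells was hybridised to 23 oligonucleotide arrays. The deposited table holds log2 expression values that the authors made with RMA, per the submitters' processing notes. Which release of RMA they used was not given in the sources used here, and the values were taken as they are. Of 45101 probe sets, 34958 name a single gene in the platform annotation, 932 several and 9211 none. Of the 34958, 34754 matched RefSeq genes by Entrez identifier and 204 did not. None of the 19 probe sets of the 10 genes is shared with another gene.

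The brightest probe set by mean stood for each gene, which gave 18194 genes. All 4 groups entered a single limma fit (version 3.58.1, R 4.3.3) with empirical Bayes and Benjamini-Hochberg adjustment, called at an adjusted p under 0.05. A second fit used every probe set. The fit was tested on simulated data. The 10 genes and the lists were chosen with earlier results of these data known. The text names the 10 genes, the 2 most similar genes of each, Il2ra, Itga6 and Foxp3, and up to 3 called genes per list and comparison with the smallest p.

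Y-linked transcripts and Xist counted as present above log2 levels of 6 and 8, and an array stood apart below a correlation of 0.99 with its group's median. The highest correlation between 2 arrays was 0.996, and no pair held identical values. Figures were drawn with matplotlib 3.10.9 in Python 3.11.15.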

Additional observations from a re-analysis of the deposited data

Results flagged for a closer look

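In 5 of 40 gene and population sets tested, the lowest or highest array was far from the others by Dixon's criterion, and chance alone flags about 1 in 20 sets. On CD25-CD49f- replicate 7, S100a10 read 10.54 with the next array at 11.78, and Capg read 5.16 with the next at 6.13. On CD25-CD49f- replicate 1, Anxa2 read 7.89 with the next at 8.18. Both are among the arrays that stand apart from their group. Anxa2 read 8.93 on CD25+CD49f- replicate 2 with the next at 8.57, and Anxa1 read 7.85 on CD25+CD49f+ replicate 1 with the next at 8.44.

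For 8 genes the CD49f difference was not the same in CD25+ as in CD25- cells by limma's interaction test. The difference of differences was -3.74 for Lgals3, -3.09 for S100a4, -2.59 for S100a6, -2.37 for Capg, -1.74 for Anxa1, -1.49 for Anxa2, -1.39 for Lgals1 and -0.84 for S100a10. The adjusted p ranged from 4.81e-13 for Lgals3 to 0.0495 for S100a10.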

How the results depend on the processing

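The differences of the 10 genes were refitted under 41 alternatives, or 40 for the interaction, of which the fit without the 4 arrays that stand apart was added after seeing the data. No called difference changed sign. Of the 45 called differences all kept their direction over the arrays without Y-linked transcripts and over those with them, where 38 and 30 were still called. Leaving out 1 array gave 3 to 4 called genes by CD49f in CD25+ cells, 9 to 9 in CD25- cells, 6 to 7 by CD25 in CD49f+ cells, 7 to 8 in CD49f- cells, 4 to 7 between double-positive and double-negative cells, 5 to 6 between CD25+CD49f- and CD25-CD49f+ cells and 7 to 8 for the interaction. The call of S100a6 within CD25+ cells was gained in 7 of the 41 alternatives. These were array weights (adjusted p = 0.0186), median scaling (adjusted p = 0.0447) and averaged probe sets (adjusted p = 0.0442). The others left out CD25-CD49f- replicate 5, 6 or 7 or CD25+CD49f- replicate 4 (adjusted p = 0.0343, 0.0303, 0.0251 and 0.0443).

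A required log2 difference of at least 1 left 4 called genes for CD25+CD49f- against CD25-CD49f- and 1 for double-positive against double-negative cells. For CD25+CD49f- against CD25-CD49f+ it left 2. Of the 19 probe sets, 9 were still called in at least 1 comparison, the interaction included, against 15 before. Averaging the probe sets of a gene gave 8 called genes for double-positive against double-negative cells, 7 higher and 1 lower. It moved 13 of the 45 called differences by over 1.5 times, all of them smaller and of Anxa1, Anxa2, Capg or S100a10, and 3 calls were lost: Capg as given above, and Anxa1 (0.20, adjusted p = 0.0923) and Anxa2 (0.15, adjusted p = 0.333) for CD25+CD49f- against CD25-CD49f- cells. The probe set with the widest interquartile range gave -1.10 in place of -0.67 for Lgals1 in CD25+CD49f- against CD25-CD49f+ cells. Arrays with Y-linked transcripts gave 0.27 (adjusted p = 0.323) in place of 0.41 for Anxa2 in CD25+CD49f- against CD25-CD49f- cells. Arrays without Y-linked transcripts gave 5 for CD25+CD49f- against CD25-CD49f-. Arrays with them gave 1 by CD49f in CD25+ cells, 4 by CD25 in CD49f+ cells and 5 for CD25+CD49f- against CD25-CD49f-. They also gave 2 for CD25+CD49f- against CD25-CD49f+, and 9 of the probe sets were called in at least 1 comparison, the interaction included. Fewer arrays or a stricter rule were used in these, except in the averaging and in the choice of probe set by interquartile range. Why the values and counts moved was not tested in any of them.

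Of 29 pairs of arrays with the same replicate number, 15 had deviations that correlated above 0.1 (range -0.51 to 0.41). The labels do not say whether arrays with the same number share mice or a sort. Pairs with different numbers were not compared, so this check cannot decide whether the samples are paired. With the replicate number as a block the call of Capg from CD25-CD49f+ to CD25+CD49f+ cells was lost (0.49, adjusted p = 0.0835) and Anxa1 was called lower by 0.38 in double-positive than in double-negative cells (adjusted p = 0.0447). As a random block its correlation was -0.01. Over all genes, calls by CD49f in CD25+ cells numbered 332, and 762 with array weights, 588 without the 4 arrays, 203 among the brighter genes and 106 with a log2 difference of at least 1. In CD25- cells they numbered 2443, and 3742 with array weights. Absent transcripts read up to 3.49 for Eif2s3y and 6.50 for Xist, so whether a signal in between is background depends on the probe set.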
